A study of Saccharomyces cerevisiae with 4 samples.

Results

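The deletions of 8 genes that act late in ergosterol synthesis in budding yeast (Saccharomyces cerevisiae) were followed on 4 two-colour tag arrays from a screen for synthetic lethality with CDC102. The members are ERG24, ERG28, ERG6, ERG2, ERG3, ERG5 and ERG4, with NCP1 as the electron donor. They were listed by their place in the pathway, with earlier results of these data known, and matched to the array annotation by gene symbol or synonym. All 8 were among the 5288 deletion strains with a value on every array.

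Ergosterol is the main sterol of fungal membranes and fills the place that cholesterol has in animal cells. Its late steps take place in the endoplasmic reticulum, where lanosterol is trimmed, desaturated and reduced one bond at a time. Most of these late enzymes are dispensable in the laboratory because cells can live on precursor sterols, although the altered membranes change drug sensitivity, endocytosis and nutrient uptake. In order of their steps, Ncp1 passes electrons from NADPH to the cytochrome P450 enzymes of the pathway. Erg24 then reduces a double bond in the sterol ring system, and Erg28 holds the complex that removes a pair of methyl groups. Erg6 methylates the side chain, Erg2 moves a ring double bond, Erg3 adds another one, Erg5 (a P450 enzyme) desaturates the side chain, and Erg4 carries out the last reduction to ergosterol.

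CDC102 is a synonym of PSF2, a subunit of the GINS complex of the replication fork. In all groups the starting material was a pool of 5896 heterozygous diploid deletion strains in which chromosomal CDC102 had been disrupted with natMX, a nourseothricin (Nat) resistance marker. The tested pools then carried the cdc102-1 allele on a centromeric URA3 plasmid, and the comparison pools carried wild-type CDC102 on such a plasmid. Haploids were grown from spores for 2 days at 30 or 28 degree on minimal medium lacking uracil, with and without Nat. Tags amplified from the plates without Nat, which hold single and double mutants, were labelled with Cy5, and those from the Nat plates, which hold double mutants only, with Cy3. Each plasmid was hybridised once per temperature, which makes 4 arrays, with no dye swap. The descriptions of both wild-type arrays also name the cdc102-1 pool in a later sentence, and groups follow the titles. The labels name no separate cultures. In the additive fit used below, the only residual of a strain is the change of its plasmid difference with temperature. The SEs and p-values rest on that residual, together with a spread borrowed across strains. They do not measure a spread between replicates, and the residual may be technical.

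The measured quantity is the deposited log2 ratio of the dyes, averaged over the spots of a strain and centred so that the median strain of each array is 0. Its numerator is not stated. Cy5 is the likely one, because the labels give the Cy5 pool as the first source, and a higher ratio would then mean relatively less of a strain among the double mutants. Each strain is read by 2 tags, here called the first and the second tag. The SD over all strains was 1.03 and 0.73 on the cdc102-1 arrays at 30 and 28 degree, and 0.77 and 0.65 on the CDC102 arrays. ERG2 was spotted 6 times per tag and the other members once per tag. ERG4 had no value for its second tag on the cdc102-1 array at 30 degree, and the other 7 members had both tags on every array.

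The levels of the members differed widely among themselves. ERG6 and ERG3 lay above the median strain on all 4 arrays, as did 26.7% of all strains, and ERG28 lay below it on all 4, as did 27.6%. Over the 8 members the SD was 1.04 and 1.10 with cdc102-1 at 30 and 28 degree, and 0.40 and 0.95 with CDC102. The members were thus closest together with CDC102 at 30 degree.

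**Figure D1:**
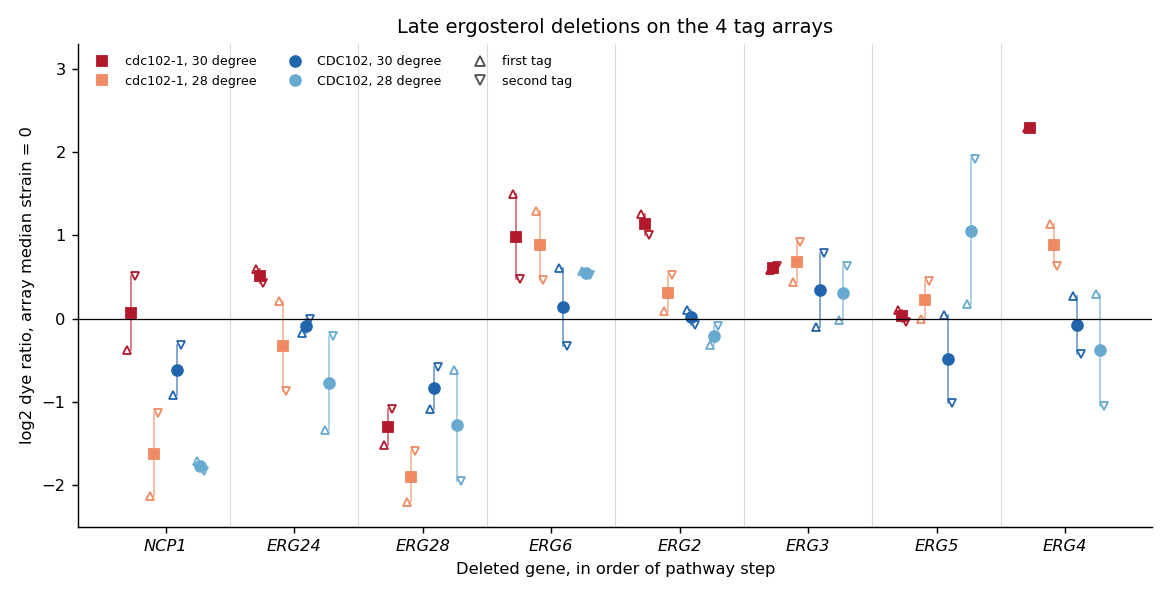
Log2 dye ratio (vertical axis, median strain of the array at 0) of the 8 deletions in order of pathway step. Filled symbols are strain values on the cdc102-1 arrays (squares) and the CDC102 arrays (circles), and open triangles are the single tags. ERG4 reaches 2.29 with cdc102-1 at 30 degree, while ERG28 is below 0 on all 4 arrays.

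ERG28 had the lowest mean level of the members. Its ratio was -1.30 and -1.90 with cdc102-1 at 30 and 28 degree, against -0.83 and -1.28 with CDC102. It was the 1 member whose cdc102-1 values both lay below its CDC102 values, beside 19.8% of all strains. NCP1 was low on 3 of the arrays: its ratio was 0.07 and -1.63 with cdc102-1 at 30 and 28 degree, against -0.62 and -1.77 with CDC102. On the CDC102 array at 28 degree only 2.65% of all strains lay below NCP1 and 7.45% below ERG28. ERG24 lay closer to the median strain, at 0.51 and -0.33 with cdc102-1 at 30 and 28 degree, against -0.09 and -0.77 with CDC102. Both arrays at 28 degree gave ERG24 its lower values.

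The side-chain and ring enzymes further down the pathway lay at or above the median strain on most arrays. ERG6, the methyltransferase, had ratios of 0.98 and 0.88 with cdc102-1 at 30 and 28 degree, against 0.14 and 0.55 with CDC102. ERG3, the desaturase, varied least, with 0.61 and 0.68 with cdc102-1, against 0.34 and 0.31 with CDC102. Both genes had higher ratios on each cdc102-1 array than on either CDC102 array. Such groups without overlap were found for 4 of 8 members (ERG6, ERG3, ERG2 and ERG4), beside 22.2% of all strains. ERG2, the isomerase, had 1.13 and 0.30 with cdc102-1 at 30 and 28 degree, against 0.01 and -0.20 with CDC102, also without overlap.

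The last enzymes differed from each other. ERG4 had ratios of 2.29 and 0.89 with cdc102-1 at 30 and 28 degree, against -0.07 and -0.37 with CDC102. Both CDC102 values lay below the median strain, with 44.4% and 27.5% of all strains below them at 30 and 28 degree. Both cdc102-1 values lay well above it. The first tag of ERG4 lay above the median strain on all 4 arrays, as given below. ERG5, which acts just before, had 0.03 and 0.22 with cdc102-1, against -0.48 and 1.05 with CDC102, so its cdc102-1 values lay between its CDC102 values.

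The plasmid comparison asks which deletions are recovered differently when cells depend on the mutant allele. Of the 8 late ergosterol deletions, 6 had a higher ratio with cdc102-1 at both temperatures (NCP1, ERG24, ERG6, ERG2, ERG3 and ERG4), as did 30.4% of all strains, and only ERG28 had a lower one at both, as did 27.6%. The median difference of the members was 0.47 on the log2 scale, beside 0.01 for all strains, and single members ran from -0.54 to 1.82. With the second tag only the median was 0.060 (7 members), and without 1 array it lay between 0.23 and 0.79. Differences without 1 array, here and below, are not matched for the other factor, so they mix plasmid and temperature. In the limma fit over all 5288 strains, with temperature as an additive term, 0 members passed an adjusted p of 0.05, and neither did any other strain (0.0%). Differences below are therefore measured values and not called changes.

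At an unadjusted p under 0.05, ERG4 and ERG2 were higher with cdc102-1, which makes 2 of 8 members beside 5.35% of all strains. None of the members was lower at that level, beside 3.39% of all strains. ERG4 alone was higher by at least 1 at both temperatures, beside 1.32% of strains. A difference of at least 1 was reached by ERG4 and ERG2 at 30 degree, beside 7.77% of strains, and by ERG4 at 28 degree, beside 3.93%.

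**Figure D2:**
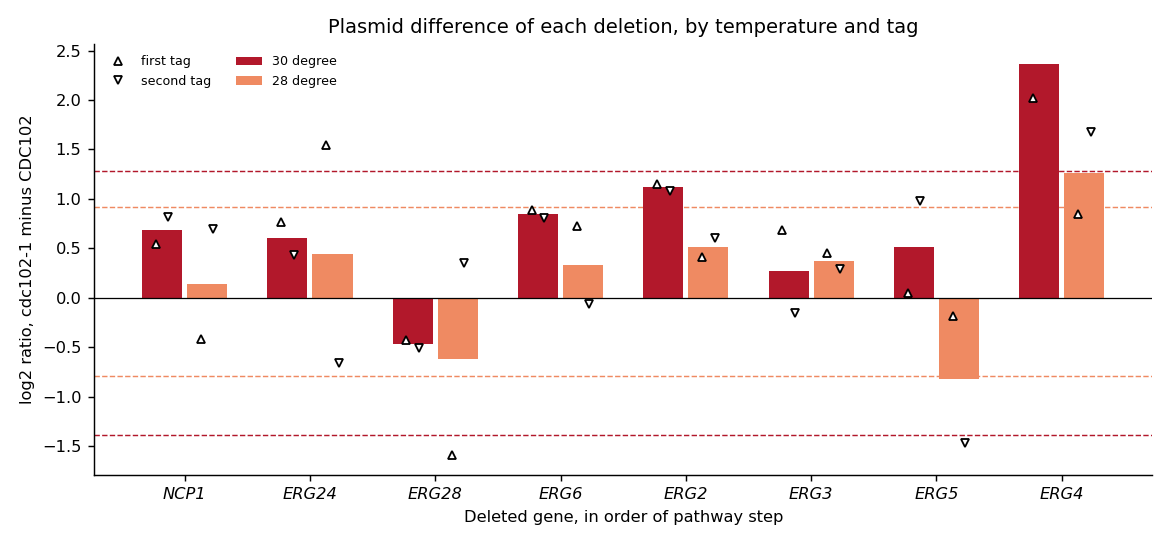
Difference in log2 ratio, cdc102-1 minus CDC102 (vertical axis), for each deletion at 30 degree (dark bars) and 28 degree (light bars). Bars are strain values, triangles the single tags, and dashed lines the 5th and 95th percentiles of all strains in the colour of the temperature. Only ERG4 lies above the upper line at both temperatures, with 2.37 and 1.26, and its bar at 30 degree lies above its only complete tag.

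The ERG4 deletion, which blocks the last reduction, had the largest difference of the members, 1.82 ± 0.36 (SE of the additive fit over 4 arrays, adjusted p = 0.553 in limma), and ranked 25 from the top among 5288 strains. It was 1.11 without the cdc102-1 array at 30 degree and 2.52 without that at 28 degree. This size rests in part on the missing tag. The first tag of ERG4 read 2.29 and 1.14 with cdc102-1 at 30 and 28 degree, against 0.27 and 0.30 with CDC102. The second tag read 0.64 with cdc102-1 at 28 degree, against -0.42 and -1.04 with CDC102 at 30 and 28 degree. The second tag was thus lower than the first on each of the 3 arrays that measured both, by 0.51 with cdc102-1 at 28 degree, and by 0.69 and 1.34 with CDC102 at 30 and 28 degree.

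The strain value of ERG4 with cdc102-1 at 30 degree therefore holds only its higher tag and was set against a mean of both. Within the first tag alone ERG4 differed by 2.02 at 30 degree and by 0.84 at 28 degree, and within the second tag by 1.68 at 28 degree. All 3 differences that compare a tag with itself were positive. With tags measured on all 4 arrays only, an alternative chosen after seeing the data, the difference of ERG4 was 1.44 ± 0.37 (adjusted p = 0.502 in limma). On the first tag ERG4 did not reach 1 at 28 degree. Of the 5288 strains, 444 (8.4%) lacked a tag on at least 1 array.

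ERG2 had 6 spots for each tag, which gave it repeats on each array. Its ratio was higher with cdc102-1 by 1.12 at 30 degree and by 0.51 at 28 degree, a mean of 0.81 ± 0.26 (SE, adjusted p = 0.564 in limma). The mean was 0.40 without the cdc102-1 array at 30 degree and 1.23 without that at 28 degree. Its first tag averaged 1.25 ± 0.07 and 0.09 ± 0.04 with cdc102-1 at 30 and 28 degree, against 0.10 ± 0.03 and -0.32 ± 0.08 with CDC102 (SD over 6 spots of the tag). Its second tag averaged 1.01 ± 0.22 and 0.52 ± 0.10 with cdc102-1, against -0.07 ± 0.07 and -0.09 ± 0.07 with CDC102 (SD over 6 spots). At 30 degree every ERG2 spot read at least 0.79 with cdc102-1 and at most 0.13 with CDC102. Repeat spots share 1 hybridisation and do not stand for separate pools.

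The tags of ERG2 also agreed on the size of the difference, with 1.15 and 1.08 at 30 degree and 0.41 and 0.61 at 28 degree. The ERG2 tag values are means over repeat spots, unlike those of the other members, and the effect of this averaging was not tested. The gap between the differences of a strain's tags was taken over 4844 strains with both tags on all arrays. Its SD was 1.11 at 30 degree and 0.76 at 28 degree. Its median absolute size was only 0.30 at 30 degree and 0.29 at 28 degree, so close tags were common among those strains. ERG2 was the 1 member of the 7 with complete tags whose tags were both higher at both temperatures, beside 16.3% of those strains. By this count the members showed no excess over all strains. In a fit restricted to the 3164 strains with a gap between tags of under 1 throughout, which leaves each strain's own values as they are, 130 strains passed an adjusted p of 0.05 in limma. The subset held 2 members, ERG2, with an adjusted p of 0.066, and ERG3, with 0.507, and neither passed.

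The remaining members with higher ratios had smaller differences. ERG6 was higher with cdc102-1 by 0.84 at 30 degree and by 0.33 at 28 degree (mean 0.59 ± 0.24, SE). Its tags gave 0.88 and 0.81 at 30 degree, but 0.72 and -0.06 at 28 degree. ERG24 was higher by 0.60 and 0.44 (mean 0.52 ± 0.20). Its tags gave 0.77 and 0.43 at 30 degree, and pointed in opposite directions at 28 degree, with 1.55 and -0.66, so the similar sizes of its strain values at both temperatures hide a wide spread. NCP1 was higher by 0.68 and 0.14 (mean 0.41 ± 0.25), with tags at 0.54 and 0.82 at 30 degree and at -0.41 and 0.70 at 28 degree. ERG3 was higher by 0.27 and 0.37 (mean 0.32 ± 0.20), with tags at 0.68 and -0.15 at 30 degree and at 0.45 and 0.29 at 28 degree. With 1 array left out the plasmid difference ran from 0.10 (without cdc102-1 at 30 degree) to 0.94 (without cdc102-1 at 28 degree) for ERG24, and was 0.38 for ERG6 without CDC102 at 30 degree. For NCP1 it was below 0 in 2 such fits, at -0.44 without cdc102-1 at 30 degree and -0.17 without CDC102 at 28 degree, and 1.26 without cdc102-1 at 28 degree. These fits have no temperature term, so 1 plasmid is read at 1 temperature and the other at both. The value of -0.44 sets cdc102-1 at 28 degree against CDC102 at both temperatures. Adjusted p-values of these members lay between 0.594 and 0.687 in limma.

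ERG28 and ERG5 were the members without a higher mean. ERG28 had differences of -0.47 at 30 degree and -0.62 at 28 degree (mean -0.54 ± 0.20, adjusted p = 0.591 in limma). Its tags were close together at 30 degree, with -0.43 and -0.50, and far apart at 28 degree, with -1.59 and 0.35. The mean of ERG28 was -0.25 without cdc102-1 at 28 degree and -0.84 without cdc102-1 at 30 degree. ERG5 had differences of 0.52 at 30 degree and -0.82 at 28 degree (mean -0.15 ± 0.42). Most of that came from its second tag, which read -0.03 and 0.46 with cdc102-1 at 30 and 28 degree, against -1.02 and 1.92 with CDC102. The first tag of ERG5 stayed between -0.01 and 0.17 on all 4 arrays.

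The difference between plasmids was larger at 30 than at 28 degree, in the signed sense, for 7 of 8 members (all but ERG3), beside 52.5% of all strains. The median difference of the members was 0.64 at 30 degree and 0.35 at 28 degree. The spread of the plasmid difference over all strains was also wider at 30 degree, with an SD of 0.84, than at 28 degree, with 0.54. After quantile normalization, which gives all arrays one spread, 6 of 8 members had the larger difference at 30 degree, beside 51.8% of all strains. The medians of the members were then 0.52 at 30 degree and 0.32 at 28 degree, beside -0.01 and -0.03 for all strains. With 1 array per combination this change with temperature has no test. For each strain it is the residual on which the SE of the additive fit rests.

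The temperature comparison sets 30 against 28 degree over both plasmids. NCP1 stood out among the members, with a ratio higher at 30 degree by 1.70 with cdc102-1 and by 1.15 with CDC102, a mean of 1.43 ± 0.25 (SE of the additive fit over 4 arrays, adjusted p = 0.851 in limma), and it ranked 23 from the top among 5288 strains. In total 5 of 8 members were higher at 30 degree with both plasmids (NCP1, ERG24, ERG28, ERG2 and ERG4), as were 26.0% of all strains. The median difference of the members was 0.52, beside 0.00 for all strains. It was -0.094 without the cdc102-1 array at 30 degree and 0.25 with the second tag only. No member and no other strain (0.0%) passed an adjusted p of 0.05.

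At an unadjusted p under 0.05, NCP1 and ERG24 were higher at 30 degree, which makes 2 of 8 members beside 1.63% of all strains. NCP1 was the 1 member higher by at least 1 with both plasmids, beside 0.359% of strains. All tags were higher with both plasmids for 3 of the 7 members with complete tags (NCP1, ERG24 and ERG2), beside 12.2% of such strains.

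**Figure D3:**
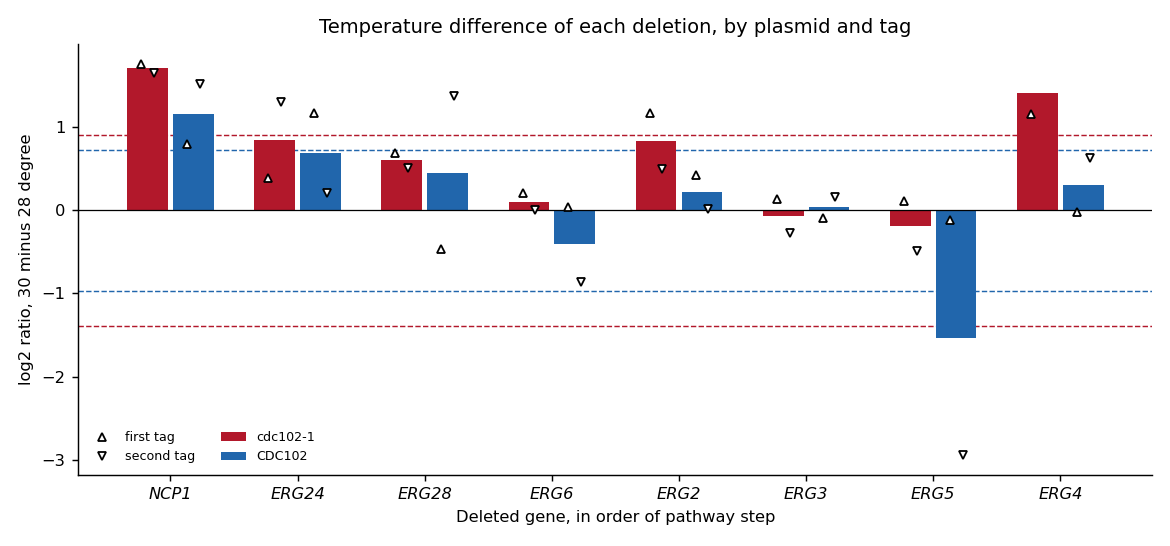
Difference in log2 ratio, 30 minus 28 degree (vertical axis), for each deletion with cdc102-1 (red bars) and CDC102 (blue bars). Bars are strain values, triangles the single tags, and dashed lines the 5th and 95th percentiles of all strains in the colour of the plasmid. NCP1 lies above the upper line with both plasmids, and the second tag of ERG5 with CDC102 lies lowest, at -2.94.

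Both tags carried the temperature difference of NCP1. The first tag was higher at 30 degree by 1.75 with cdc102-1 and by 0.80 with CDC102, and the second by 1.64 and 1.51. The deletion lay far below the median strain at 28 degree, at -1.63 with cdc102-1 and -1.77 with CDC102, and its level at 30 degree was near or below the median strain, as given above. ERG24, which acts next to the P450 step that Ncp1 serves, was higher at 30 degree by 0.84 with cdc102-1 and by 0.68 with CDC102 (mean 0.76 ± 0.20, adjusted p = 0.851 in limma). Its tags gave 0.38 and 1.30 with cdc102-1 and 1.16 and 0.20 with CDC102.

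ERG28 and ERG2 differed less with temperature. ERG28 was higher at 30 degree by 0.60 with cdc102-1 and by 0.44 with CDC102, where its tags gave -0.47 and 1.36. ERG2 was higher by 0.83 with cdc102-1 and by 0.22 with CDC102. ERG4 had 1.41 with cdc102-1 and 0.30 with CDC102, but its first tag alone gave 1.15 and -0.03, so the strain value with cdc102-1 again sets 1 tag against a mean of both. With tags measured on all 4 arrays only, the mean temperature difference of ERG4 was 0.57 ± 0.37 (SE), in place of 0.85 ± 0.36.

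ERG6, ERG3 and ERG5 were not higher at 30 degree with both plasmids. ERG6 had temperature differences of 0.10 with cdc102-1 and -0.41 with CDC102, and ERG3 of -0.07 and 0.03. ERG5 had -0.19 with cdc102-1 and -1.53 with CDC102. Its tags gave -0.12 and -2.94 with CDC102, so the low strain value is that of the second tag.

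The 19 strains of earlier or essential steps had a median plasmid difference of -0.26, and 0 passed the adjusted test. With cdc102-1, 3 were higher and 9 lower at both temperatures, beside 30.4% and 27.6% of all strains. Most of these genes are essential, so few living haploids would be expected. Their median level over the 4 arrays was -0.88. Of the 19, 13 lay below the median strain on all 4, against 1 of the 8 late members and 27.6% of all strains. ERG1, the squalene epoxidase, was higher by 0.60 ± 0.24 (SE), with tags at 0.72 and 0.94 at 30 degree and at 1.26 and -0.53 at 28 degree. ERG20, the farnesyl pyrophosphate synthase, ERG13, the HMG-CoA synthase, and MVD1, the mevalonate pyrophosphate decarboxylase, had differences of -1.51 ± 0.55, -1.38 ± 0.21 and -0.98 ± 0.26. ERG20 lies on chromosome X, as CDC102 does, and its tags at 30 degree gave -0.36 and -4.54. ERG13 lacked a difference for its second tag at 30 degree. Its first tag gave -0.66 at 30 degree and -0.34 at 28 degree, where the second gave -2.60, so its strain value mixes tags as that of ERG4 does. MVD1 had tag differences of -0.93 and -0.44 at 30 degree, beside -2.69 and 0.14 at 28 degree.

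Regulation, esterification and transport of sterols were read by 31 of 33 listed strains. Their median plasmid difference was 0.02, and 0 passed the adjusted test. At both temperatures 13 were higher and 11 lower, beside 30.4% and 27.6% of all strains. The largest value was that of ARV1, an endoplasmic reticulum protein of sterol homeostasis, at 1.04 ± 0.29 (SE). It was higher with cdc102-1 by 1.42 at 30 degree and by 0.66 at 28 degree, with both tags higher at both temperatures. SWH1 and KES1, both oxysterol-binding protein homologues, were higher by 0.80 ± 0.25 and 0.66 ± 0.20. The tags of KES1 lay between 0.50 and 0.80, while those of SWH1 gave 0.24 and 1.92 at 30 degree.

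**Figure D4:**
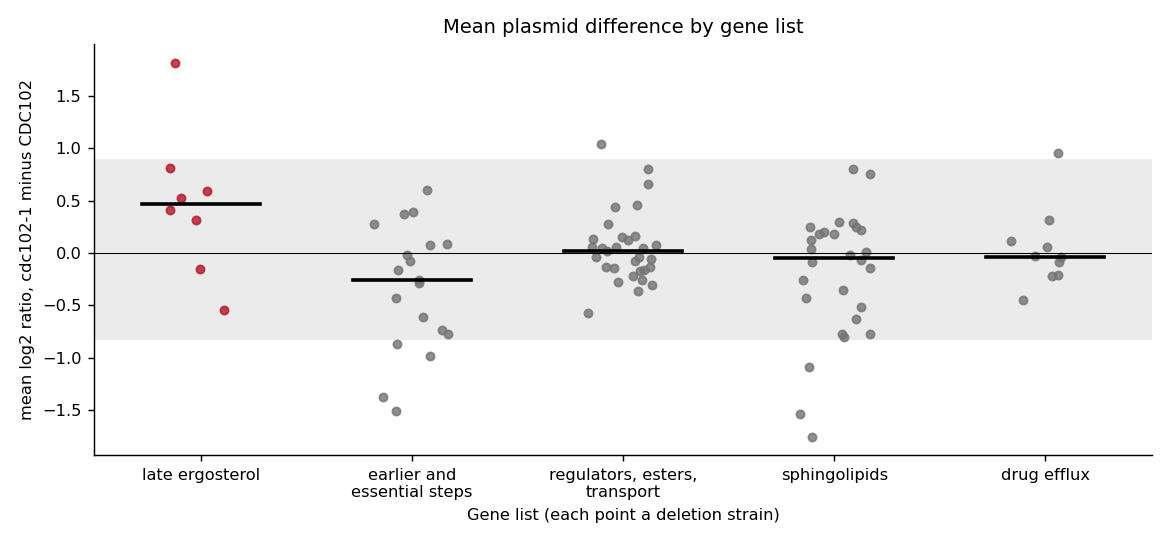
Mean plasmid difference in log2 ratio, cdc102-1 minus CDC102 (vertical axis), of each deletion strain in 5 gene lists. Points are strains, black lines list medians, and the grey band spans the 5th to 95th percentile of all strains. The late ergosterol median is 0.47, and the medians of the other lists lie between -0.26 and 0.02.

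Sphingolipid genes, whose products pack with ergosterol in the plasma membrane, had a median plasmid difference of -0.04 over 28 of 30 listed strains. At both temperatures 6 were higher and 11 lower, beside 30.4% and 27.6% of all strains, and 0 passed the adjusted test. LIP1, a ceramide synthase subunit, had a difference of -1.75 ± 0.36 (SE), IPT1, which adds the last head group to complex sphingolipids, one of -1.54 ± 0.21, and ELO3, a fatty acid elongase, one of -1.08 ± 0.38. SCS7, the fatty acid hydroxylase of ceramides, was higher by 0.76 ± 0.33. All 4 tag differences of IPT1 lay between -1.87 and -1.35.

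The Nat plates contain a drug, and strains of drug efflux were read as well. The median difference of 10 of the 11 listed was -0.04, and 0 passed the adjusted test. At both temperatures 4 were higher and 2 lower, beside 30.4% and 27.6% of all strains. PDR17, a phosphatidylinositol transfer protein, was the 1 named strain, higher by 0.95 ± 0.21 (SE). It lacked a difference for its second tag at 30 degree. Its first tag gave 1.06 at 30 degree and 1.14 at 28 degree, where the second gave 0.56. The median level with CDC102 was 0.17 for these strains and -0.16 for the late ergosterol members.

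The deletions next to each member on its chromosome were read as well. ERG4 (YGL012W, chromosome VII) lies between PDR1 and SCL1, which had mean plasmid differences of -0.45 ± 0.21 and -0.55 ± 0.72 (SE). Both means were opposite in sign to ERG4. SCL1 had 0.72 at 30 degree, where it shared the sign of ERG4, and -1.81 at 28 degree. Its levels were -1.92 and -1.60 with cdc102-1 at 30 and 28 degree, against -2.64 and 0.21 with CDC102. ERG2 (YMR202W, chromosome XIII) had RAD14 and TOM40 as its nearest measured strains, at -0.57 ± 0.24 and -1.52 ± 0.36. TOM40 lay far below the median strain on all 4 arrays, with levels from -3.57 to -1.23. NCP1 (YHR042W, chromosome VIII) lies between SRB2 and DOG2, with temperature differences of -0.11 and -0.21. Next to ERG28 (YER044C, chromosome V), SAH1 had a mean plasmid difference of -1.24 ± 0.40 and MEI4 one of -0.12 ± 0.21, both with the sign of ERG28. MEI4 had 0.01 at 30 degree and -0.26 at 28 degree. The levels of SAH1 were -1.76 and -1.12 with cdc102-1 at 30 and 28 degree, against 0.10 and -0.51 with CDC102. Whether low levels such as those of SCL1, TOM40 and SAH1 affect their differences was not tested. Next to ERG3 (YLR056W, chromosome XII), SPT8 and MNL2 had 0.37 ± 0.21 and 0.94 ± 0.34, both with the sign of ERG3. The other neighbours, those of ERG24 (YNL280C, chromosome XIV), ERG6 (YML008C) and ERG5 (YMR015C), both on chromosome XIII, lay between -0.76 and 0.21. None of the members is on chromosome X, where CDC102 lies. The deposited values name no genome build, so no positions are given.

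Over the 4 centred arrays, the strain values most like those of ERG4 were found for RPN10, NKP2 and RPL17A, at Euclidean distances of 0.40, 0.40 and 0.53. Those most like NCP1 belonged to APC4, YBP1 and RAI1, at distances of 0.42, 0.66 and 0.74. These are likenesses over 4 values each, and for ERG4 they include the array on which its second tag was missing.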

How the data were processed

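The authors deposited 1 log2 ratio of both dyes per spot and array, read with a GenePix scanner and its software, per the labels. The sources used here do not state the numerator, the background correction or the dye normalization. Every ratio was a multiple of 0.01 within 0.1 percent, and 10 cells with a stand-in ratio of 1000000 were left out. Signal over background is unknown, as only ratios were read, and precision is limited by having 4 arrays.

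Of 22575 spots, 18794 named 1 gene, 0 named several and 3781 named none in the platform annotation. Symbols were updated through gene identifiers (5321 of 5325 matched, RefSeq R64). Spots of a gene 10971 spot numbers apart were taken as the first and second tag. Spots were averaged per strain, and arrays were centred on their strain medians (-0.27 and -0.19 for cdc102-1 at 30 and 28 degree, -0.20 and -0.17 for CDC102). With the stand-in cells left out, named spots without a value numbered 727 and 16 with cdc102-1 at 30 and 28 degree, and 399 and 65 with CDC102. Plasmid and temperature were tested as additive terms in limma 3.58.1 (R 4.3.3, lmFit and eBayes) with Benjamini-Hochberg adjustment over 5288 strains, leaving 1 residual degree of freedom plus 2.30 borrowed across strains. A permutation of 2 against 2 arrays cannot go below 0.333, two-sided. The fit was tested on simulated data.

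Members and lists were chosen with earlier results of these data known. From each list up to 3 strains in each direction were named, by size, among those with a mean plasmid difference of at least 0.5 and the same sign at both temperatures. Nearest measured neighbours and the 3 nearest patterns of ERG4 and NCP1 were named too. Alternatives were other scalings, spot medians, single tags, tag means, tag-agreeing strains, 3 arrays, a robust prior, no second term and each array left out.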

Additional observations from a re-analysis of the deposited data

Results flagged for a closer look

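The plasmid difference of ERG5 was 0.52 at 30 degree and -0.82 at 28 degree, with both tags positive at 30 degree (0.05 and 0.98) and both negative at 28 degree (-0.18 and -1.47). The opposite signs drew attention. The difference between temperatures was not tested, since each combination had 1 array, and the first tag was near 0 at both.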

How the results depend on the processing

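No strain passed an adjusted p of 0.05 for plasmid or temperature under the settings run, except that 130 of 3164 strains passed for plasmid among those whose tags differed by under 1 (0 for temperature). That filter uses the same values, so its count cannot be set against the others. At an unadjusted p under 0.05, leaving out 1 array gave 197 strains (without CDC102 at 30 degree) to 878 (without cdc102-1 at 28 degree) for plasmid, in place of 462, and 109 (without cdc102-1 at 28 degree) to 680 (without CDC102 at 30 degree) for temperature, in place of 295. These fits drop the second term and mix both factors.

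The median plasmid difference of the members, 0.47, was 0.060 with the second tag only (7 members), and 0.23 (without cdc102-1 at 30 degree) to 0.79 (without cdc102-1 at 28 degree) with 1 array left out. Their median temperature difference, 0.52, was 0.25 with the second tag only, and -0.094 (without cdc102-1 at 30 degree) to 0.67 (without CDC102 at 30 degree), and 0.25 without CDC102 at 28 degree. Single members changed sign in 3 cases with 4 arrays: ERG24 for plasmid with the second tag only (-0.12), and ERG6 and ERG3 for temperature with the first tag only (0.12 and 0.020). With 1 array left out, the plasmid difference ran from -0.44 to 1.26 for NCP1 and from -0.92 to 0.61 for ERG5. The temperature difference ran from -0.58 to 0.27 for ERG6, from -0.035 to 1.08 for ERG2, from -0.20 to 0.17 for ERG3 and from -0.33 to 2.04 for ERG4. The differences with 1 array left out mix plasmid and temperature, as said above, and the cause of the changes was not tested. The other 109 and 105 values kept their sign.

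A size of 0.5 at both temperatures gave 304 higher and 206 lower strains with 2 members higher, and 1.5 gave 18 and 4 with 0 members, in place of 70 and 36 with 1 member at 1.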
